A study of Mus musculus with 28 samples.

Results

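The embryoid bodies (EBs) compared here carried different substitutions of the same lysine of Elongin A: methionine in K754M and arginine in K754R. The members were taken from the labels by genotype and stage, 2 K754M libraries and 2 K754R libraries, 4 of the 28 libraries of the series, and they were compared across all genes of the deposited table. Both edited lines came from the CJ7 mouse embryonic stem cell (mESC) line, and the EBs, aggregates of differentiating cells, were collected on day 5 after LIF was withdrawn. The 2 wild type and 2 Eed null EB libraries of the same line shared the fit, and wild type values are given beside the edited ones. The same genotypes were also sequenced as mESCs, which were grown on mouse feeder fibroblasts with serum, LIF and a pair of kinase inhibitors and depleted of feeders before lysis. The labels do not say whether an edited line was 1 clone or whether replicates were separate cultures, so the p-values measure the spread between libraries, which may be technical.

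Elongin A is the large subunit of Elongin, which raises the rate at which RNA polymerase II moves along a gene. PRC2, which the title of the series joins to Elongin A, methylates lysines and needs its subunit Eed. Arginine keeps the positive charge of lysine and methionine does not, and neither can be methylated by a lysine methyltransferase. After LIF withdrawal, stem cells switch off the pluripotency factors led by Pou5f1 and Nanog, pass through an epiblast-like state, and then turn on genes of the primitive streak, mesoderm and endoderm.

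Values were RPKM, which divides the reads of a gene by its exon length and by the size of the library, and differences are given on the log2(RPKM + 0.5) scale ± the moderated standard error from limma. Library depth, estimated from the RPKM step of 1 read, lay, in units of 1000000 reads, between 28.7 and 32.5 in the 4 edited EB libraries. The variance between replicates was 9.45 times (K754M) and 14.1 times (K754R) the variance that read sampling alone gives. The EB label was checked against its markers: T, a primitive streak factor, was 9.71 to 69.4 RPKM in the edited and wild type EBs and at most 3.35 RPKM in the mESCs of these genotypes. Among the other lineages, Prl3d1 of trophoblast giant cells was listed at 0 in the 6 libraries, and Elf5 of trophoblast stayed at or under 0.0895 RPKM and Pax6 of neural ectoderm at or under 0.0678 RPKM.

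Tceb3, the gene of Elongin A, was 9.67 and 11.4 RPKM in K754M EBs, 8.46 and 8.44 in K754R and 10.1 and 11.6 in wild type. The K754M and K754R libraries did not overlap, but their difference did not pass the test (0.30 ± 0.16, limma adjusted p = 0.375). Eed was 49.8 and 50.5 RPKM in K754M against 40.1 and 38.0 in K754R (0.36 ± 0.10, limma adjusted p = 0.113). The substitutions change codons, so the RNA levels do not check the labels.

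K754M and K754R EBs differed at 698 of 19300 tested genes, 3.62%, at a limma adjusted p below 0.05. Of these, 367 (1.90%) were higher in K754M and 331 (1.72%) lower. The difference was 2-fold or more on the log2(RPKM + 0.5) scale at 249 of the higher and 164 of the lower genes. At an unadjusted limma p below 0.05 there were 3694 of the 19300 genes, the background for the unadjusted counts of lists given below. The leading genes on the higher side were stem cell and primitive streak factors, and on the lower side Xist, the imprinted growth genes Grb10 and Igf2, and genes of later mesoderm and connective tissue. Rows named as small RNAs, pseudogenes, predicted genes or clones, or sharing a name with another row, made up 89 of the higher and 46 of the lower calls and are not described one by one.

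The number of calls depended on every one of the 4 libraries. Without K754M replicate 1 it was 21, without K754M replicate 2 it was 37, without K754R replicate 1 it was 64 and without K754R replicate 2 it was 30, each in a fit that assumes the remaining library of the group varies like the other groups. A set of 19 genes, 0.0984% of those tested, was called whichever of the 4 was left out. The 15 that were higher in K754M included Pou5f1, Nanog, L1td1, Dppa4, Tdgf1, Igfbp3, Triml2, Stmn2, Wnt8a, T, Fst, Pmaip1, Apoc1 and the predicted gene Gm11019. The 4 that were lower were Xist, Grb10, Igf2 and Eif2s3y. Of all genes, 26.1% had both K754M libraries above both K754R libraries and 28.4% had both below.

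**Figure D1:**
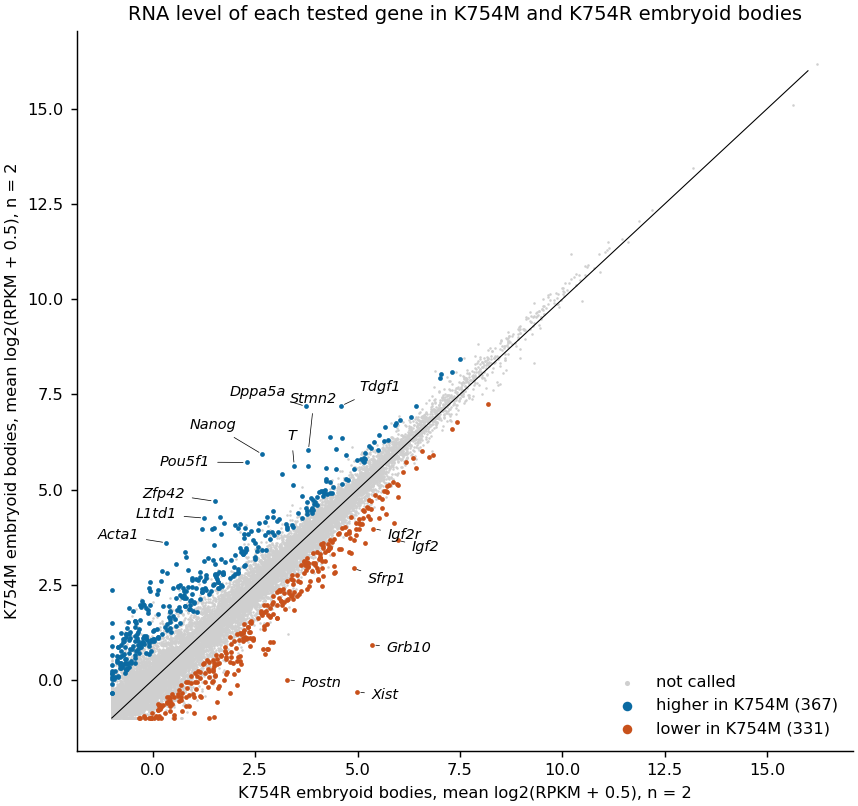
Mean log2(RPKM + 0.5) of each tested gene in K754R EBs (horizontal axis) and K754M EBs (vertical axis), 2 libraries each, with the 367 genes called higher in K754M in blue, the 331 called lower in orange and the line of equal levels in black. Pou5f1, Nanog, Zfp42 and L1td1 lie far above the line, and Xist and Grb10 lie farthest below it.

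Wild type lay nearer to K754M than to K754R for most of these genes. This was so for 268 of the 367 genes higher in K754M (73.0%) and 265 of the 331 lower (80.1%), beside 61.8% of all tested genes, by the distance between group means on the log2 scale. In 246 of the higher (67.0%) and 175 of the lower genes (52.9%) the wild type mean lay between the edited ones, beside 29.6% of all tested genes. Against the same wild type libraries, K754M differed at 109 genes (0.565%) and K754R at 1868 genes (9.68%). Both of these comparisons use the same wild type libraries, so their values are given only side by side. Both edited groups lay under wild type along chromosome 11, with values given below.

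Pluripotency genes were higher in K754M EBs. Of 26 tested genes of naive pluripotency, the state of the early epiblast and of stem cells in LIF, 14 were higher in K754M and none lower, with a median difference of 1.19 beside -0.01 over all tested genes. Of 10 genes of core pluripotency, shared by early and later epiblast, 3 were higher and none lower (median 0.52). At an unadjusted limma p below 0.05 no member of either list was lower in K754M. The 14 naive calls fell to 3 without K754M replicate 1, 5 without K754M replicate 2, 9 without K754R replicate 1 and 5 without K754R replicate 2, while the median lay between 1.10 and 1.33.

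Pou5f1, which encodes the POU factor Oct4 at the centre of the stem cell network, was 51.5 and 52.3 RPKM in K754M, 5.61 and 3.44 in K754R and 47.9 and 50.2 in wild type. Both K754M libraries sat beside wild type and both K754R libraries about an order of magnitude below (3.42 ± 0.19, limma adjusted p = 0.00101). Nanog, a homeobox factor that holds cells in the undifferentiated state, was 58.7 and 62.1 RPKM in K754M, 6.39 and 5.39 in K754R and 36.7 and 59.0 in wild type (3.26 ± 0.21, limma adjusted p = 0.00154). L1td1, an RNA-binding protein of stem cells, was 16.2 and 21.2 against 2.30 and 1.54, with wild type at 16.5 and 15.5. For these genes K754R was the low group and K754M lay within or near the wild type values.

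Other naive genes had another order. Zfp42, also called Rex1 and a marker of the naive state, was 24.5 and 26.3 RPKM in K754M, 3.22 and 1.69 in K754R and 9.08 and 6.80 in wild type. Dppa4, a chromatin-associated stem cell protein, was 18.5 and 19.6, then 2.89 and 2.40, then 7.13 and 8.17 in the same order of groups. For Dppa5a, a stem cell RNA-binding protein, the values were 138 and 153 in K754M, 18.4 and 8.92 in K754R and 54.6 and 77.4 in wild type. In all of these the wild type libraries lay between the edited groups. The K754M EBs were above wild type at a limma adjusted p of 0.0396 for Dppa4, while Zfp42 (0.0651) and Dppa5a (0.186) did not pass.

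The other naive genes called higher in K754M were Dppa3, Dppa2, Fbxo15, Esrrb, Fgf4, Prdm14, Nr0b1 and, shared with the Nodal pathway, Gdf3, Lefty1 and Tdgf1. Esrrb, a nuclear receptor of naive cells, was low in all groups, at 1.18 and 1.5 RPKM in K754M, 0.0749 and 0.0414 in K754R and 0.252 and 0.407 in wild type. Sox2, the partner of Oct4, was 6.95 and 6.21 RPKM in K754M against 2.72 and 2.22 in K754R and missed the threshold (1.26 ± 0.27, limma adjusted p = 0.0535). Klf4, a naive factor, was 0.798 and 0.705 against 1.02 and 1.24 (-0.38 ± 0.27, limma adjusted p = 0.509), so not every stem cell factor was higher. Of 14 tested genes of the primed epiblast, the next state, 2 passed, both higher. Fgf5, a ligand that marks that state, overlapped between the groups, at 18.8 and 22.3 in K754M and 20.1 and 23.4 in K754R. In bulk RNA a smaller share of cells with a transcript and less of it per cell cannot be told apart.

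**Figure D2:**
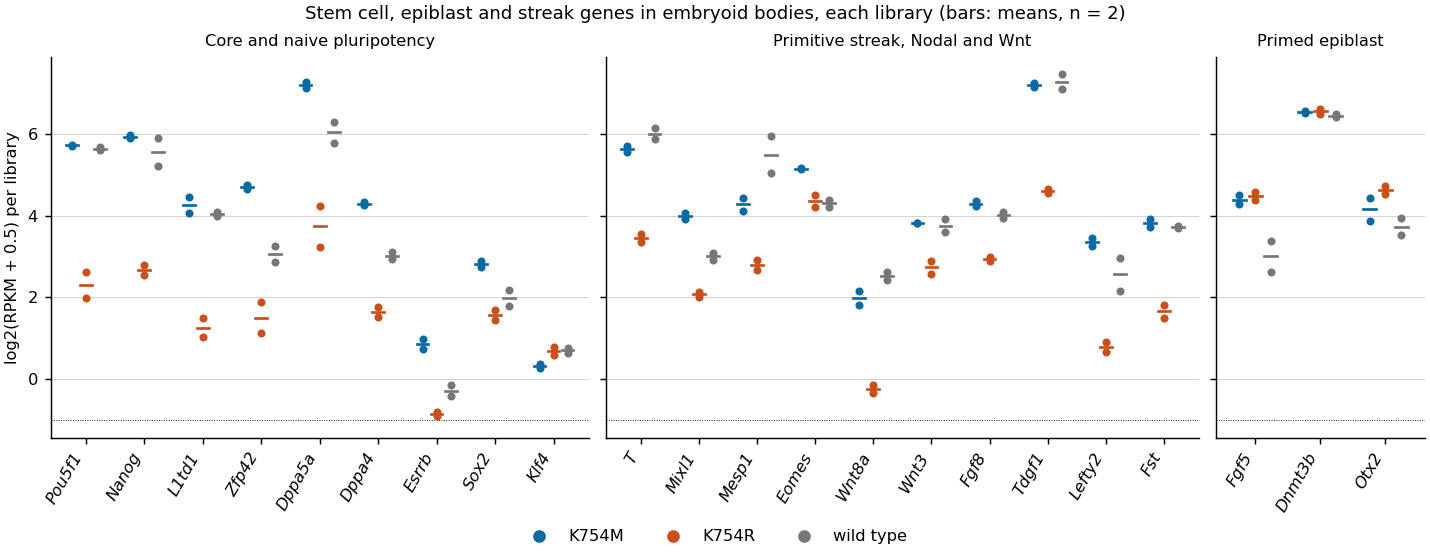
Log2(RPKM + 0.5) of pluripotency, primitive streak, Nodal, Wnt and primed epiblast genes in each EB library (points) with the mean of 2 libraries (bars), for K754M (blue), K754R (orange) and wild type (grey); the dotted line marks 0 RPKM. For Pou5f1, L1td1, T, Tdgf1 and Fst the K754M points sit near wild type and the K754R points well below, while Fgf5 and Dnmt3b overlap between K754M and K754R.

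Promoter sequences are shown for a pair of the pluripotency genes that were higher together in K754M, because each carries a site of the Oct4 network. The windows are the 250 bases before the gene start, from RefSeq (GRCm38.p6), and 23 of 36 genes of the naive and core lists had one. The composite Sox-Oct motif, which is CATTGT and ATGCAAA with 1 base of any kind between them and was searched on both strands, occurred in 2 of 32851 windows (0.00609%), both of them starts of Nanog. The octamer ATGCAAAT, searched likewise, occurred in 526 windows (1.60%), among them those of Zfp42 and Spp1 in these lists. These are matches of letters and do not show binding, and the motifs share the letters ATGCAAA. Nanog is shown at chr6:122707239-122707488 on the plus strand with the composite motif in capitals (here read from the opposite strand), 75 bases before the start. Zfp42 is shown at chr8:43307010-43307259 on the minus strand with the octamer in capitals (also read from the opposite strand, so the letters are its reverse complement), 186 bases before the start.
Nanog: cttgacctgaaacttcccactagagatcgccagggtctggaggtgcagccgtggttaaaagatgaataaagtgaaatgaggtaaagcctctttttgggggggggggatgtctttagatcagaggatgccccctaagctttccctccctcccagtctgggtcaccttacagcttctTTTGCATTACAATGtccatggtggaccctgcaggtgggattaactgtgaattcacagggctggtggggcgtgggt
Zfp42: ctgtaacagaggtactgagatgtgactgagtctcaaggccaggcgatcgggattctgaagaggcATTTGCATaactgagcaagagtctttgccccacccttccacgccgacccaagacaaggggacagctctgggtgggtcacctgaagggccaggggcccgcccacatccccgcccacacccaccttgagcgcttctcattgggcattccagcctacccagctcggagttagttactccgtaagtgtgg

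Primitive streak genes were also higher in K754M. Of 24 tested genes of the streak and nascent mesoderm, the first cells to leave the epiblast at gastrulation, 10 were higher and none lower (median 0.82), and 3 were lower at an unadjusted limma p below 0.05. The calls numbered 1 without K754M replicate 1, 1 without K754M replicate 2, 2 without K754R replicate 1 and 1 without K754R replicate 2, with a median between 0.70 and 0.81. T, the T-box factor that marks the streak, was 46.1 and 51.8 RPKM in K754M, 11.3 and 9.71 in K754R and 57.5 and 69.4 in wild type (2.17 ± 0.16, limma adjusted p = 0.00209). Mixl1, a homeobox factor of the streak, was 16.1 and 14.6, then 3.55 and 3.91, then 8.02 and 7.05 in the same order. The groups did not overlap for either gene, and K754R was the lowest of the 3.

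Mesp1, a factor of the earliest heart and head mesoderm, was 16.8 and 21.2 RPKM in K754M and 5.85 and 7.09 in K754R, with wild type higher than both at 32.2 and 60.9 (limma adjusted p = 0.0473 for K754M against K754R). Msgn1, a factor of presomitic mesoderm, was 0.935 and 1.51 against 0.184 and 0, with wild type at 5.99 and 3.52. For these genes both edited groups were under wild type, K754R further. Eomes, a T-box factor of the streak and endoderm, was 35.4 and 34.4 in K754M against 18.0 and 22.0 in K754R and did not pass (0.79 ± 0.23, limma adjusted p = 0.11). Tbx6 of presomitic mesoderm was 1.16 and 1.38 against 1.26 and 1.7, so the streak list was not uniform.

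Several signals that pattern the streak were called, in lists that share members with those above. Lefty2, Wnt3, Sp5 and Fgf8 were also counted in the streak list. Lefty1, Gdf3, Tdgf1 and Fgf4 were also counted in the naive list. In the Nodal, BMP and TGF-beta list, 5 of 37 tested genes were higher and 1 lower, with a median of -0.06. The list did not move one way: 9 were higher and 9 lower at an unadjusted limma p below 0.05, and the 4 edited libraries fitted alone gave 6 calls higher and 4 lower. The Nodal coreceptor Tdgf1 was 142 and 151 RPKM in K754M, 24.8 and 22.8 in K754R and 135 and 174 in wild type (2.60 ± 0.15, limma adjusted p = 0.00101). Lefty2, a secreted Nodal inhibitor and Nodal target, was 9.08 and 10.4 against 1.37 and 1.09 (2.56 ± 0.25, limma adjusted p = 0.00586), and the related Lefty1 was 8.0 and 8.66 against 2.36 and 2.21. Fst, which binds activin, was 12.8 and 14.6 against 3.04 and 2.33, and the ligand Gdf3 was 2.10 and 2.77 against 0.442 and 0.0882. The call on the lower side was Id2, a BMP target that blocks bHLH factors, at 19.7 and 17.3 against 49.7 and 41.5 (-1.27 ± 0.14, limma adjusted p = 0.00896). Without K754R replicate 1 the list had 4 calls and without each of the other 3 libraries 2, all higher.

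In the Wnt list, 5 of 27 tested genes were higher and 2 lower. The ligand Wnt8a was 3.00 and 3.96 RPKM in K754M, 0.3 and 0.413 in K754R and 5.70 and 4.92 in wild type (2.21 ± 0.19, limma adjusted p = 0.00446). Wnt3, the ligand needed to form the streak, was 13.7 and 13.5 against 5.46 and 6.93, and the Wnt target Sp5 was 6.93 and 7.22 against 3.78 and 3.66. Both calls on the lower side were secreted Wnt antagonists: Sfrp1, at 6.00 and 8.40 against 25.7 and 33.7 (-1.97 ± 0.25, limma adjusted p = 0.012), and Sfrp5, at 0.459 and 0.533 against 2.81 and 2.88. The other calls on the higher side were the ligand Wnt5b and Sp8, a relative of Sp5. Without any 1 of the 4 libraries, the Wnt list had 1 call, higher.

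Among FGF and MAPK feedback genes, 4 of 30 were higher and 2 lower. Fgf8, the ligand of migrating streak cells, was 19.8 and 18.2 RPKM in K754M, 7.47 and 6.88 in K754R and 14.9 and 16.6 in wild type. Dusp6, the phosphatase that dampens ERK and is induced by it, was 30.8 and 30.4 against 17.3 and 17.3 (0.80 ± 0.14, limma adjusted p = 0.0281). The receptors Fgfr3, at 1.21 and 0.882 against 3.84 and 3.96, and Fgfr2, at 5.93 and 5.56 against 9.09 and 10.6, were lower. The other calls on the higher side were the ligand Fgf4 and the AP-1 factor Junb, and most of the list, the ligand Fgf5 included, did not pass. No gene of the list was called when any 1 of the 4 libraries was left out.

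In the list of epithelial to mesenchymal transition and smooth muscle, 5 of 28 tested genes were higher and 2 lower (median 0.38). The calls on the higher side were Cnn1, Tagln, Myl9, Tpm2 and S100a6. Cnn1, calponin of smooth muscle, was 9.98 and 5.98 RPKM in K754M, 1.15 and 0.833 in K754R and 8.39 and 3.50 in wild type. Tagln, an actin-binding protein, was 103 and 67.7 against 25.7 and 15.0, with wild type at 34.3 and 20.4. Outside the list, Acta1, skeletal actin and one of the largest rises, was 15.0 and 9.0 against 0.894 and 0.629, with wild type at 4.58 and 2.73 (3.28 ± 0.30, limma adjusted p = 0.00497). For Cnn1, Tagln and Acta1 replicate 1 was above replicate 2 in K754M, in K754R and in wild type. The calls on the lower side were the mesenchymal bHLH factors Twist1, at 11.6 and 12.1 against 20.3 and 20.3, and Twist2, at 4.08 and 3.60 against 10.3 and 10.2. Without K754R replicate 1 the list had 1 call, and without any of the other 3 libraries none.

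Xist and the imprinted gene Grb10 had the largest differences of the genes named on the lower side. Xist, the RNA that coats and silences an X chromosome, was 0.257 and 0.354 RPKM in K754M EBs, 27.5 and 35.7 in K754R and 0.149 and 0.366 in wild type (-5.31 ± 0.24, limma adjusted p = 0.000455). K754R stood apart from both other groups. Xist overlaps the antisense gene Tsix, and use of strand is not given in the sources used here, so the reads cannot be assigned to one of them with certainty. Over 790 tested genes of chromosome X the median difference was -0.11, with 21 higher and 26 lower.

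Grb10, an imprinted adaptor that restrains insulin and growth factor receptors, was 1.40 and 1.38 RPKM in K754M, 37.4 and 44.0 in K754R and 4.37 and 3.51 in wild type. It had the smallest adjusted p of all named genes (-4.44 ± 0.16, limma adjusted p = 0.000192), and K754M was also below wild type (limma adjusted p = 0.0371). Igf2, the imprinted fetal growth factor, was 12.7 and 11.7 in K754M, 65.6 and 59.5 in K754R and 11.3 and 9.03 in wild type (-2.31 ± 0.13, limma adjusted p = 0.00101). Igf2r, the receptor that clears Igf2, was 15.5 and 15.0, then 41.5 and 41.0, then 12.9 and 15.7. Airn, the antisense transcript in the Igf2r gene, was 2.99 and 2.79 against 5.50 and 6.08, and the reads of these overlapping genes cannot be told apart without strand. In each case the K754R libraries were the high ones.

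The imprinted list as a whole did not move one way: 3 of 45 tested genes were higher in K754M and 4 lower, with a median of -0.10. Snrpn, a splicing protein gene expressed from the paternal copy, was 85.4 and 86.6 RPKM against 43.9 and 47.0 (0.91 ± 0.13, limma adjusted p = 0.0179). Sfmbt2, a Polycomb-related gene of extraembryonic lineages, was 4.34 and 4.86 against 1.08 and 1.43. Without 1 library the lower calls in this list numbered 2 or 3 and the higher calls 0.

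**Figure D3:**
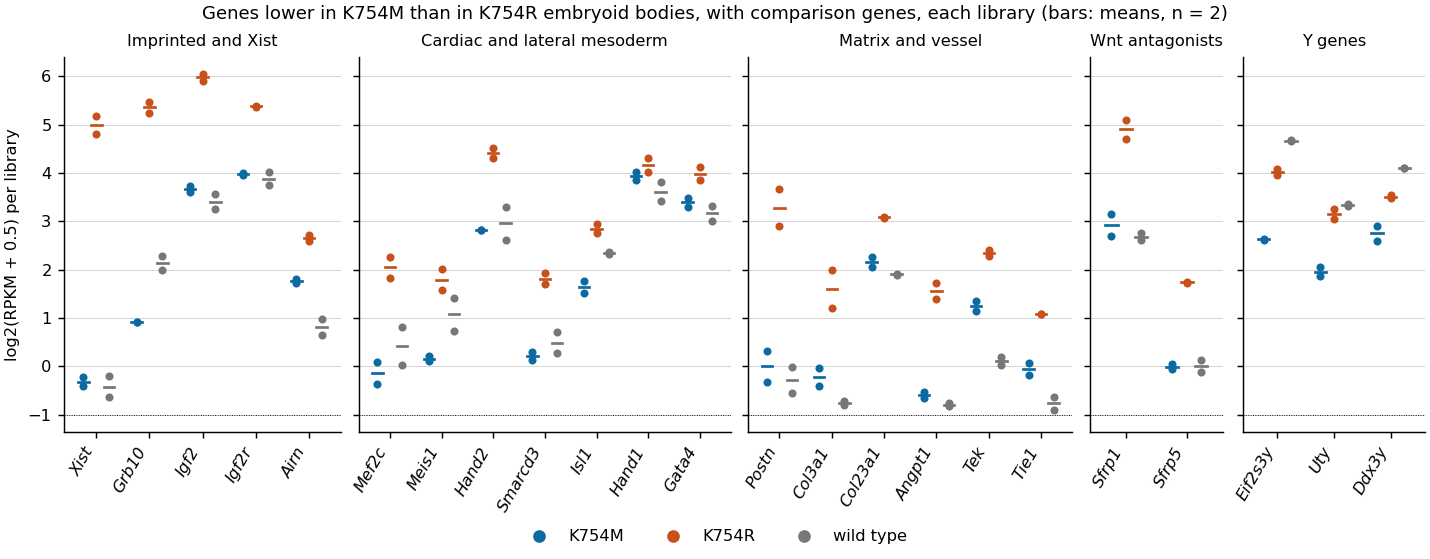
Log2(RPKM + 0.5) in each EB library (points) with the mean of 2 libraries (bars) for genes lower in K754M (blue) than in K754R (orange), with wild type in grey and the dotted line at 0 RPKM; Hand1 and Gata4 are cardiac list members that were not called. Xist, Grb10, Postn and Angpt1 are high in K754R alone, while for the Y genes Eif2s3y, Uty and Ddx3y K754M is lowest and wild type highest.

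Part of the later mesoderm list was lower in K754M. Of 26 tested cardiac and lateral mesoderm genes, 7 were lower and 1 higher, with a median of -0.48. No member was called without any 1 of the 4 libraries, although the median then lay between -0.56 and -0.40. Hand2, a bHLH factor of heart and lateral plate, was 6.58 and 6.53 RPKM in K754M, 19.4 and 22.5 in K754R and 9.36 and 5.66 in wild type (-1.60 ± 0.22, limma adjusted p = 0.0157). Mef2c, a muscle and heart MADS factor, was 0.282 and 0.568 against 3.03 and 4.33, and Isl1, of the second heart field, was 2.38 and 2.90 against 6.30 and 7.15. The 4 other genes lower in K754M were Meis1, Smarcd3, Twist1 and Tbx20.

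Structural genes of heart muscle gave other values. Actc1, cardiac actin, was the call on the higher side, at 2.13 and 1.37 RPKM against 0.281 and 0.194. Myl7, an atrial myosin light chain, was 9.93 and 11 against 4.83 and 5.51 (0.95 ± 0.24, limma adjusted p = 0.0759), and Tnnt2, cardiac troponin, was at or under 1.56 in the 6 libraries. Hand1, of lateral plate and extraembryonic mesoderm, was 15.7 and 14.1 against 15.7 and 19.4 and did not pass. The lower calls were thus transcription factors and a chromatin subunit.

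Few vessel genes passed. Of 25 tested blood and endothelium genes 2 were lower and none higher: the angiopoietin receptor Tek, at 1.73 and 2.07 RPKM against 4.83 and 4.34, and its relative Tie1, at 0.388 and 0.544 against 1.63 and 1.63. Outside the list, Angpt1, a ligand of Tek, was 0.139 and 0.195 against 2.83 and 2.12 (-2.15 ± 0.24, limma adjusted p = 0.0096). Kdr, the VEGF receptor of early vessel and blood progenitors, was 30.1 and 34.0 against 25.6 and 37.8, overlapping between the groups. When any 1 of the 4 libraries was left out, no gene of the list was called. The receptors Tek and Tie1 were thus highest in K754R, with wild type at 0.643 and 0.521 for Tek and 0.143 and 0.0382 for Tie1.

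Some matrix genes were lower as well. Of 30 tested collagen and matrix genes 4 were lower in K754M and none higher (median -0.36). At an unadjusted limma p below 0.05, 15 were lower and none higher, beside 3694 of 19300 in either direction over all tested genes. Without K754R replicate 2 the list had 1 call and without any of the other 3 libraries none. Postn, a secreted protein of connective tissue, was 0.749 and 0.303 RPKM in K754M, 12.2 and 6.99 in K754R and 0.497 and 0.180 in wild type (-3.28 ± 0.35, limma adjusted p = 0.00828). Col3a1, a fibrillar collagen, was 0.476 and 0.258 against 3.47 and 1.83. Feeder fibroblasts also express these genes. The 23 tested fibroblast markers summed to 54.3 and 48.7 RPKM in K754M, 77.0 and 74.3 in K754R and 41.0 and 34.4 in wild type, with 1 called higher and 3 lower, and 3 higher and 8 lower at an unadjusted limma p below 0.05. The 3 lower calls were Postn, Col3a1 and Pdgfrb. Of the defining markers, Dcn, at 0.0323 and 0 against 0.361 and 0.340, and Lum, at 0.0451 and 0.0148 against 0.504 and 0.196, were low and lower in K754M than in K754R. Thy1, at 0.737 and 0.849 against 0.281 and 0.252, and Col1a1, at 2.17 and 1.54 against 1.34 and 1.47, were higher in K754M and did not pass. Their part in the matrix result was not tested.

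Few genes passed in the list of other developmental homeobox and related factors. Of 24 tested, 4 were lower in K754M and none higher (median -0.07), and 1 call was left without K754M replicate 1 and none without any of the other 3 libraries. Pitx1, a hindlimb and pituitary factor, was 0.599 and 0.0578 RPKM against 3.60 and 2.83 (-2.24 ± 0.32, limma adjusted p = 0.0171), and Irx1 was 0.736 and 1.05 against 3.05 and 3.32, with wild type at 3.20 and 2.56. The other calls of the list were Irx5 and Tbx15. Not among these calls, Hesx1, a repressor of the anterior neural plate and pituitary, was 0 and 0.0269 against 1.68 and 3.18. Of 30 tested Hox genes, the factors that set position along the body axis, 1 was called, Hoxb6, at 0.826 and 0.458 against 2.27 and 1.64 (-1.11 ± 0.23, limma adjusted p = 0.0492). The K754M libraries were below both K754R libraries at 20 of the 30, beside 28.4% of all genes. Most of these values lay near 0: the median Hox gene was at 0.163 and 0.0733 RPKM in K754M and 0.204 and 0.200 in K754R. It was at 0.738 and 0.857 in Eed null, whose libraries alone could bring a gene past the filter for testing. Summed Hox RPKM was 7.71 and 6.98 in K754M, 14 and 14.7 in K754R and 7.02 and 5.73 in wild type.

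Germline, trophoblast and endoderm lists gave small counts. In the germline list 5 of 29 tested genes were higher and none lower. Without K754M replicate 2 or K754R replicate 1 the germline list had 1 call and without either of the other 2 libraries none, and a pseudocount of 1 gave 2. Tex19.1, which guards germ cells against transposons, was 3.68 and 3.18 RPKM against 0.413 and 0.306, and the germ cell helicase Ddx4 was 1.34 and 1.74 against 0.135 and 0.0994. In the trophoblast list 3 of 18 tested genes were higher and 1, Fgfr2, lower, with a median of 0.03. At an unadjusted limma p below 0.05, 4 were higher and 2 lower. Among its higher calls, the homeobox gene Rhox6 of placenta and germ cells was 16.6 and 13.9 in K754M, 2.07 and 1.55 in K754R and 6.18 and 6.38 in wild type. Its neighbour Rhox9 was 5.02 and 4.27 against 0.516 and 0.665. Rhox genes are similar copies, so their reads may be split between them. In visceral endoderm 3 of 26 were higher and none lower, while 6 were higher and 8 lower at an unadjusted limma p below 0.05, and 1 call was left without K754M replicate 2 and none without any of the other 3 libraries. The yolk sac carrier Afp was 4.43 and 1.98 against 0.235 and 0.196, while Ttr of the same tissue was 13.2 and 8.59 against 23.3 and 15.4 and did not pass. In definitive endoderm 1 of 18 was higher, the keratin gene Krt19 at 51.4 and 42.8 against 20.3 and 16.4, and 1 lower, Epcam, at 47.0 and 46.4 against 88.3 and 84.1. Neither was called when any 1 of the 4 libraries was left out. The factors Foxa2 and Sox17 did not pass: Foxa2 was 8.27 and 8.79 against 11.7 and 11.7, and Sox17 was 13.1 and 11.9 against 15.9 and 19.

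Interferon and antigen presentation genes were higher in K754M than in K754R at 4 of 31 tested, and none was lower. Without K754M replicate 2 or K754R replicate 1 the list had 1 call, and without either of the other 2 libraries none. Irf1, an interferon response factor, was 14.8 and 14.6 RPKM against 5.28 and 5.58 (1.36 ± 0.15, limma adjusted p = 0.00955). Gbp2, an interferon-induced GTPase, was 2.43 and 1.65 against 0.597 and 0.536, with wild type at 16.8 and 22.5. Side by side against the shared wild type libraries, 10 members were called lower in K754M and 18 lower in K754R, so wild type was the high group for this list.

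Several lists had no call in limma's test. Over all tested genes, 3694 of 19300 had an unadjusted limma p below 0.05, the background for the unadjusted counts given here in parentheses. None of 33 tested Elongin and elongation factor genes passed (median 0.00, 1 higher and 1 lower at an unadjusted p below 0.05), nor any of 12 PRC2 subunits (2 and 0) or 21 PRC1 subunits (1 and 3). Nor did any of 35 glycolysis and hypoxia genes (1 and 1), 53 respiratory chain genes (3 and 0), 23 cholesterol synthesis genes (3 and 0) or 15 DNA methylation genes (2 and 3). Tceb2, the Elongin B subunit, was 226 and 198 RPKM against 222 and 174, and Mtf2, a PRC2 partner, 40.4 and 41.6 against 35.5 and 33.4. Of 74 ribosomal protein genes 1 was called, Rpl22 (354 and 330 against 197 and 166), yet both K754M libraries were above both K754R libraries at 56 of them, beside 26.1% of all genes. Their summed RPKM was 57828 and 53323 in K754M, 50106 and 41741 in K754R and 58366 and 63780 in wild type. The size of their median difference, 0.27, depended on scaling and on the libraries used. It was 0.10 under quantile normalization and 0.32 under median scaling. It was 0.21 without K754M replicate 1, 0.33 without K754M replicate 2, 0.41 without K754R replicate 1 and 0.13 without K754R replicate 2.

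**Figure D4:**
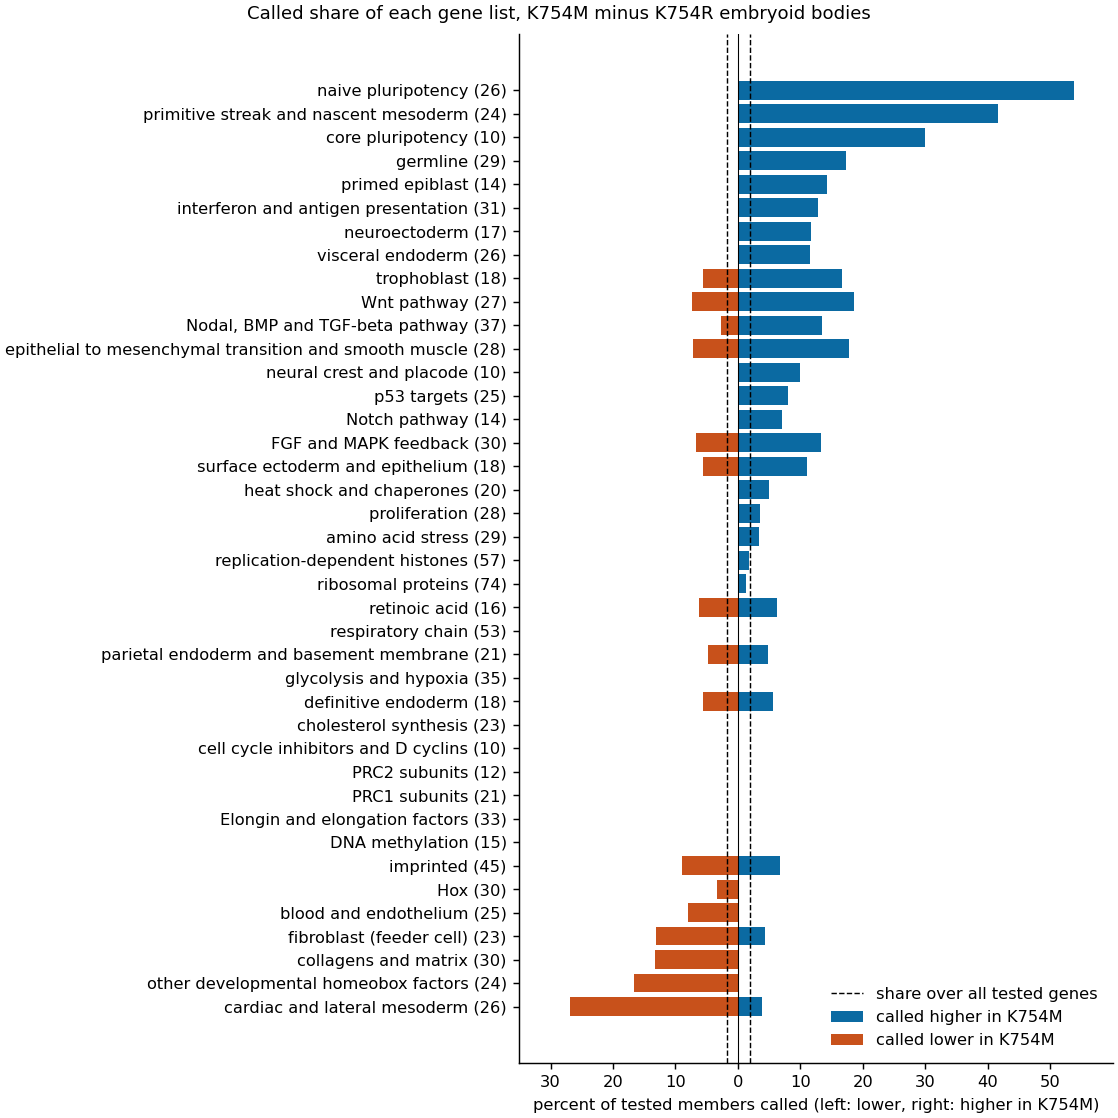
Percent of the tested members of each gene list with at least 10 tested members (number in parentheses) that were called higher in K754M (blue, right) or lower (orange, left), with dashed lines at the shares of all genes, 1.90% and 1.72%. Naive pluripotency and the primitive streak reach furthest on the higher side and cardiac and lateral mesoderm on the lower.

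Few genes were called between the same genotypes as stem cells. In mESCs, 2 of 21012 tested genes were called, 0.00952%, both lower in K754M, and 2114 had an unadjusted limma p below 0.05. The called genes were Ube1y1 on chromosome Y, an enzyme that activates ubiquitin, at 0.421 and 0.479 RPKM in K754M and 14.5 and 9.94 in K754R (-3.72 ± 0.27, limma adjusted p = 0.0438), and the predicted gene Gm364 on chromosome X, at 6.53 and 9.16 against 72.4 and 55.0. Pou5f1 was 358 and 370 RPKM in K754M mESCs and 286 and 300 in K754R (0.31 ± 0.12, limma adjusted p = 0.442), and Nanog was 465 and 656 against 514 and 537. Over the 26 naive genes the mESC median was 0.03, with none called. Depth was lower in mESCs, at 11.1 to 18.2 in units of 1000000 reads. Their replicates also differed more: the variance between them was 22.3 times (K754M) and 26.2 times (K754R) that of read sampling. In EBs it was 9.45 and 14.1 times, so the numbers of calls at the 2 stages do not compare the size of the differences. The 30 fibroblast markers tested there summed to 357 and 800 RPKM in K754M and 448 and 1383 in K754R, and their part in the mESC values was not tested. Whether the stages differ was not tested either.

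Across the 17757 genes tested at both stages, the EB and mESC differences had a Pearson correlation of 0.085. This is a correlation across genes, which are not independent replicates. Of the 640 EB calls tested in mESCs, 413 had the same sign there and 30 were 2-fold or more the same way. These shares were not taken over all 17757 genes, so the counts have no background beside them. Calls in the stretches that differed at both stages, given below, were not set apart. Grb10, for example, was 14.8 and 18.5 RPKM in K754M mESCs and 10.3 and 20.4 in K754R, and Xist was 2.83 and 3.71 against 2.50 and 2.70. Neither showed in mESCs the difference seen in EBs.

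Some differences shared by both stages lay in stretches of neighbouring genes. In order along the chromosomes, 10377 protein-coding genes with a mean of at least 1 RPKM at each stage were divided into 260 blocks of about 40. In EBs the median difference was 0.4 or more in size in 10 blocks, of which 6 were past 0.4 the same way in mESCs, and it lay between -0.39 and 0.29 in the other 250. The 10 blocks held 364 genes and 80 of the 442 calls among genes in blocks.

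The last block of chromosome 17, from Cdc42ep3 to Mettl4, had a median of -0.81 in EBs and -0.67 in mESCs, and 22 of its 40 genes were called lower in K754M EBs. Here K754M was the group apart, at -0.80 against wild type beside 0.09 for K754R. Msh6, a mismatch repair gene there, was at 28.7 and 31.3 RPKM in K754M against 52.4 and 51.2 in K754R. Epcam, an epithelial adhesion protein given above, lies in the same block. These examples were chosen after their values were seen, from among the highest expressed called genes of the stretch.

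At the end of chromosome 4, from Luzp1 to Isg15, 4 blocks had medians of 0.44 to 0.59 in EBs and 0.34 to 0.62 in mESCs, with 32 of 159 genes called higher and none lower. In this stretch K754R was the group apart, at -0.55 to -0.29 against wild type in EBs beside 0.08 to 0.20 for K754M. Rpl22, the ribosomal protein called above, lies in it, as do Park7 (72.9 and 67.9 RPKM against 40.9 and 35.9) and Rer1 (79.2 and 71.3 against 46.7 and 37.3). In mESCs the difference reached further along the chromosome than in EBs. The blocks just before, from Ppt1 to Hnrnpr, had medians of 0.41 to 0.53 in mESCs beside -0.27 to 0.08 in EBs. K754R there was at -0.53 to -0.41 against wild type in mESCs. Tceb3, the edited gene, lies in the last of these blocks, from Dhdds to Hnrnpr, whose median was -0.27 in EBs and 0.50 in mESCs. All 9 blocks of chromosome 14 were lower in K754M, by medians of -0.43 to -0.29 in EBs and -0.44 to -0.19 in mESCs, with K754R at 0.34 to 0.47 and K754M at -0.02 to 0.11 against wild type in EBs. Hesx1, Rarb and Kcnk16, genes lower in K754M, lie on chromosome 14, and the part of the chromosome in their calls was not tested. In every block of chromosome 11 both edited groups were below wild type at both stages. The EB medians there were -0.51 to -0.27 for K754M and -0.49 to -0.28 for K754R. Grb10, below wild type in K754M, lies on chromosome 11, and the part of the chromosome in that difference was not tested.

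Genes of chromosome Y were lower in K754M EBs, at 4 of 6 tested. The translation factor gene Eif2s3y was 5.65 and 5.72 RPKM in K754M EBs, 15.2 and 16.4 in K754R and 24.7 and 25.1 in wild type (-1.40 ± 0.10, limma adjusted p = 0.00209). In mESCs it was 8.17 and 6.83, then 42.5 and 24.3, then 55.5 and 46.9, and the difference did not pass (limma adjusted p = 0.101). Of 8 Y genes tested in mESCs Ube1y1 was the 1 called. The histone demethylase genes Uty, at 3.17 and 3.64 against 7.78 and 9.02, and Kdm5d, at 0.0399 and 0.0112 against 0.981 and 0.903, and the helicase gene Ddx3y, at 7.01 and 5.54 against 11.2 and 10.6, were also lower in K754M EBs. K754M was below wild type for Eif2s3y, Uty and Ddx3y (limma adjusted p = 0.00236, 0.0218 and 0.0219). Side by side against the same wild type libraries, K754R was also below for Eif2s3y and Ddx3y (limma adjusted p = 0.0140 and 0.0462). Uty did not pass there (limma adjusted p = 0.426). The Y genes were named after their values were seen.

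**Figure D5:**
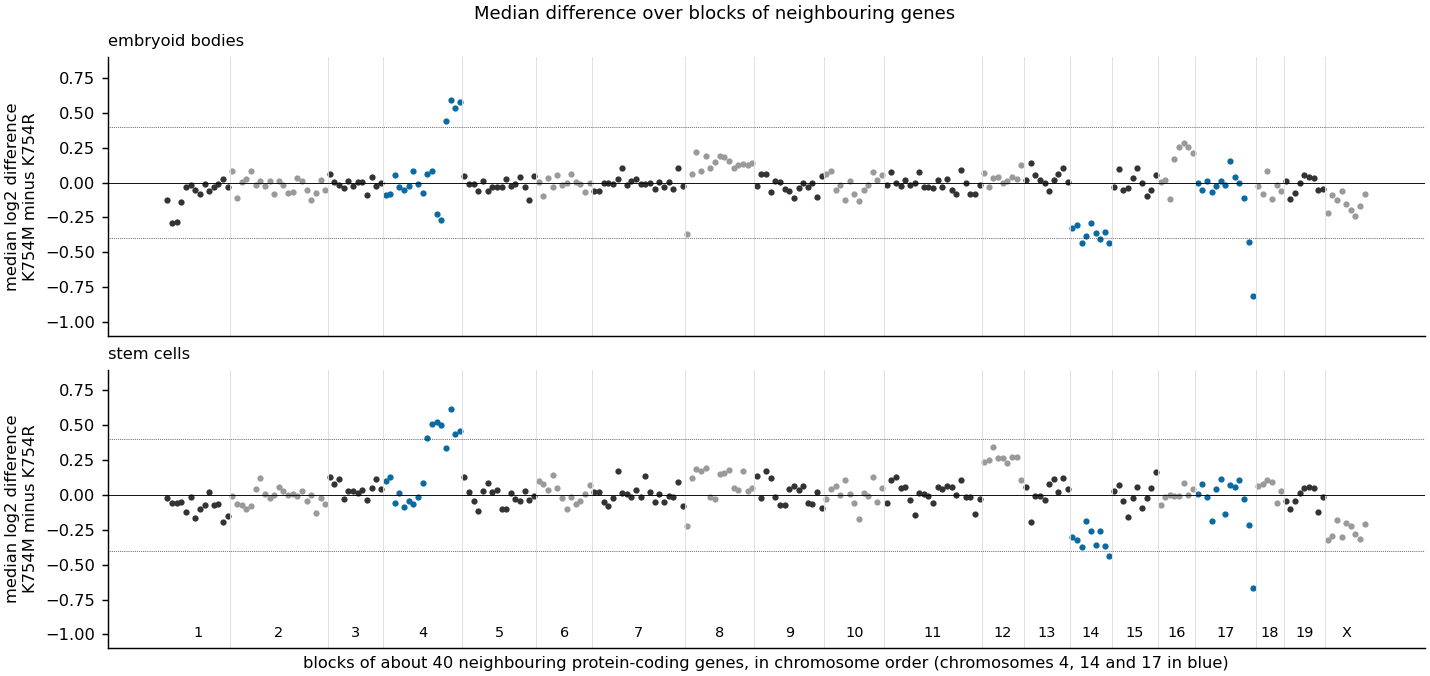
Median log2 difference (K754M minus K754R) over each block of about 40 neighbouring protein-coding genes in chromosome order, in EBs (top) and mESCs (bottom), with dotted lines at 0.4 and -0.4 and chromosomes 4, 14 and 17 in blue. The end of chromosome 4 is high, the end of chromosome 17 low and all of chromosome 14 low at both stages.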

How the data were processed

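Total RNA depleted of ribosomal RNA was sequenced, per the labels' protocols. The authors deposited RPKM, 1 value per gene and library, in an EB table and a mESC table of 37583 genes. Of tools and builds, CASAVA 1.7, STAR and mm9 are named in the submitters' processing notes, without roles. For the counting program, annotation and strand setting nothing is stated in the sources used here. The 12 CCE columns were not used.

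Each stage was fitted separately with limma-trend (limma 3.58.1, R 4.3.3) on log2(RPKM + 0.5) over 8 CJ7 libraries in 4 groups of 2, for genes with 0.25 RPKM or more in at least 2 libraries. P-values were adjusted by Benjamini-Hochberg over all tested genes and called below 0.05. The fit was checked on simulated data. Alternatives covered pseudocount, filter, scaling, prior, replicate block, chromosomes and each library left out. GENCODE M21 gave chromosome, gene order and exon length by identifier (32860 found). Summaries were made in Python 3.11.15 with pandas 2.3.3, and plots with matplotlib 3.10.9.

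Members and the 43 gene lists (1196 of 1236 entries matched a row) were chosen with earlier results of these data known. The rule named Tceb3, Eed, the 12 largest called differences each way with a higher group mean of at least 1 RPKM and no overlap of libraries, the 5 smallest adjusted p, marker genes, and up to 4 called members each way of each list, or highly expressed members. It left out small RNAs, pseudogenes, predicted genes, clones and the 3730 rows sharing a name. Lefty1, Sp5, Isl1, other called list members without values, the Y genes, block genes, and genes called in every leave-out were named after their values were seen. Some called genes are not reported here.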

Additional observations from a re-analysis of the deposited data

Results flagged for a closer look

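For 14 of the named genes called in EBs, both K754M libraries lay on one side of both K754R libraries in EBs and on the other side in mESCs. None of the 14 was called in mESCs, and the difference between the stages was not tested. Of these genes, 12 were higher in K754M EBs and lower in K754M mESCs. Lefty2, the Nodal inhibitor, was 10.3 and 22.5 RPKM in K754M mESCs against 81.8 and 182 in K754R (log2 difference -2.96, beside 2.56 in EBs). The Rhox genes did the same, Rhox6 with 0.552 and 1.36 against 8.09 and 8.38 (-2.64, beside 2.77) and Rhox9 with 0.294 and 0.484 against 4.47 and 2.94 (-2.23, beside 2.24). Sfmbt2 was 6.41 and 4.46 against 16.3 and 10.9 in mESCs (-1.24, beside 1.54 in EBs).

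Those 4 differences moved by less than 1.5 times when any 1 of the 4 mESC libraries was left out, and the other 10 by more. K754R replicate 2 carried several of them, and it also had the highest summed fibroblast markers, 1383 RPKM beside 448 in K754R replicate 1 and 357 and 800 in K754M; the part of these in the values was not tested. T was 0.516 and 0.453 RPKM in K754M mESCs against 0.652 and 3.35 in K754R (-1.1, and -0.23 without K754R replicate 2). Wnt5b was 0.262 and 0.331 against 0.404 and 1.68 (-0.82, and -0.18 without that library), and Igfbp3, a binding protein of insulin-like growth factors, was 5.56 and 4.60 against 5.75 and 15.6 (-0.85, and -0.17). Nanos3, a germ cell gene, was 1.42 and 2.24 against 2.92 and 6.70 (-1.11, and -0.58).

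Wnt3 had a mESC difference of -0.32 (-0.13 without K754M replicate 2), Sp8 of -0.26 (-0.14 without K754R replicate 1), the interferon-induced Bst2 of -0.87 and the intermediate filament gene Nes of -0.52 (-0.37 and -0.29 without K754M replicate 2). In the opposite direction, Xist had a mESC difference of 0.27 (0.10 without K754M replicate 2) and the homeobox gene Irx1 one of 0.62 (0.41 without K754R replicate 1), while both were lower in K754M EBs.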

How the results depend on the processing

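Directions of the 99 named genes called in EBs were the same under all alternatives that gave them a value, and the number of calls was not. The EB count of 698 became 425 with no filter beyond a value above 0, 1140 with the 4 K754M and K754R libraries alone and 379 without chromosomes 4, 8, 14, 17, X and Y, and it ranged from 21 to 64 when 1 of the 4 libraries was left out. The replicate numbers are shared in the labels but pair nothing known: replicate 1 minus 2 correlated at 0.23 between K754M and K754R, and a fit with the replicate number as a block called 1099, with visceral endoderm at 3 higher and 4 lower. Other pseudocounts, filters, scalings and priors, leaving out a wild type or Eed null library, and leaving out chromosomes 8, 11, 14, X and Y gave 562 to 958. In mESCs the 2 calls became 0 with a pseudocount of 1, no filter, the 4 libraries alone, the replicate block, quantile normalization, or without the chromosomes 8, 11, 14, X and Y or 4, 8, 14, 17, X and Y, 0 when any of the 8 libraries was left out, and 8 without a trend; limma gave 976 to 3290 genes at an unadjusted p below 0.05. The cause of these changes was not tested. Of the 99, 14 to 26 kept their call without 1 of the 4 libraries and 52 with no filter. List medians moved by more than the spread between replicates in 89 of 860 cases. Leaving out Eed null or wild type libraries and the second set of chromosomes were chosen after seeing the data. At 2 libraries a group and 28.7 to 32.5 times 1000000 reads a library, a difference that missed the threshold is not shown to be absent.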
